A study of Arabidopsis thaliana with 12 samples.

Results

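CP1 and AT1G29090 are papain-type cysteine protease genes of Arabidopsis thaliana, each read by 1 probe set paired with that gene alone. They are 2 of 13286 loci with a probe set of their own in the annotation used, and they were picked by name, with their levels in these samples known. Their own differences are therefore given as descriptions with no test. Transcript levels came from developing seeds of Col-0 wild type and of abi3-6 homozygotes, which carry a mutated ABI3, the B3-domain transcription factor that drives seed maturation. Whole seeds were dissected from siliques of plants kept in long days, either 12 or 16 days after flowering (DAF). The 4 groups had 3 arrays apiece, each array from its own batch of plants. No transgene or treatment is named in the labels.

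Papain-type cysteine proteases cut proteins with a cysteine, helped by a histidine, in the active site. They are made as inactive precursors with an inhibitory prodomain and act mostly in vacuoles, lysosome-like compartments and the cell wall. In seeds, proteases of this family are known for degrading storage proteins after germination and for clearing the contents of dying cells, and cystatins are their small protein inhibitors. CP1 is also named RDL1, for its likeness to the drought-induced protease RD21A, and AT1G29090 carries no name in the gene table used. A second locus, AT4G11310, lists CP1 as an older name there, but the gene meant here is AT4G36880.

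All values are log2 expression as deposited. A probe set was called dim on an array where it lay below 3.16, the 40th percentile of all values, and probe sets reaching that limit on at least 3 of 12 arrays were tested, 14873 in all. Between array medians of 4.05 and 4.46 and within-group correlations of 0.990 to 0.996 no array stood far apart from its group, although abi3-6 replicate 3 at 16 DAF had the lowest mean correlation with its group (0.990, against 0.993 for the other 2 arrays) and departed from them for several of the genes below. The medians differed by genotype. At 12 DAF they ran from 4.27 to 4.34 in wild type and from 4.41 to 4.45 in abi3-6. At 16 DAF they ran from 4.05 to 4.10 and from 4.43 to 4.46. ABI3 itself is not reported here, since no probe set was paired with it alone. Maturation markers followed the labels: 4 of 7 had a probe set, and their summed level, as log2, ran from 15.7 to 15.9 on the wild-type arrays, from 11.1 to 11.3 in abi3-6 at 12 DAF and from 6.97 to 7.90 at 16 DAF.

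CP1 was at a high level in abi3-6 seeds at 16 DAF and at a low level in the other 3 groups. In wild type at 12 DAF it read 2.47, 3.10 and 2.71 on replicates 1 to 3, below the dim limit on each array. In abi3-6 at 12 DAF it read 4.38, 3.97 and 4.90. In wild type at 16 DAF it read 3.22, 4.97 and 4.90, replicate 1 lying just above the dim limit and the other arrays well above it. In abi3-6 at 16 DAF it read 12.17, 12.49 and 13.00, and no array of any other group came near these values.

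The order of CP1 levels was thus wild type 12 DAF (2.76 ± 0.32, SD, n = 3), wild type 16 DAF (4.36 ± 0.99), abi3-6 12 DAF (4.41 ± 0.47) and abi3-6 16 DAF (12.55 ± 0.42). The 2 middle groups overlapped and did not differ beyond their spread, while the lowest and the highest group overlapped with no other. Between genotypes the log2 difference of CP1 was 8.19 ± 0.40 (SE) at 16 DAF, a 291-fold higher level in the mutant. At 12 DAF the mutant was at least 2.38-fold higher, a bound because wild type was dim there. Without wild type replicate 1, the low array, the 16 DAF difference was 7.62.

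Across age, CP1 was at least 2.30-fold higher at 16 than at 12 DAF in wild type, again against a dim group. In abi3-6 the same step was 8.14 ± 0.40 log2 units (SE), or 281-fold.

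AT1G29090 was above the dim limit in abi3-6 seeds at 16 DAF alone. At 12 DAF the wild-type arrays read 2.60, 2.66 and 2.63, and the mutant arrays 2.57, 2.55 and 2.57. Wild type at 16 DAF read 2.77, 2.68 and 2.87. These 9 arrays were all dim, so their order carries no information on the transcript. In abi3-6 at 16 DAF it read 8.58, 8.34 and 10.14, with replicate 3 well above the other arrays. The mean there was 9.02 ± 0.98 (SD, n = 3), at least 58.1-fold above wild type of the same age and above the mutant at 12 DAF. Without abi3-6 replicate 3 the bound against wild type was 39.4-fold.

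**Figure D1:**
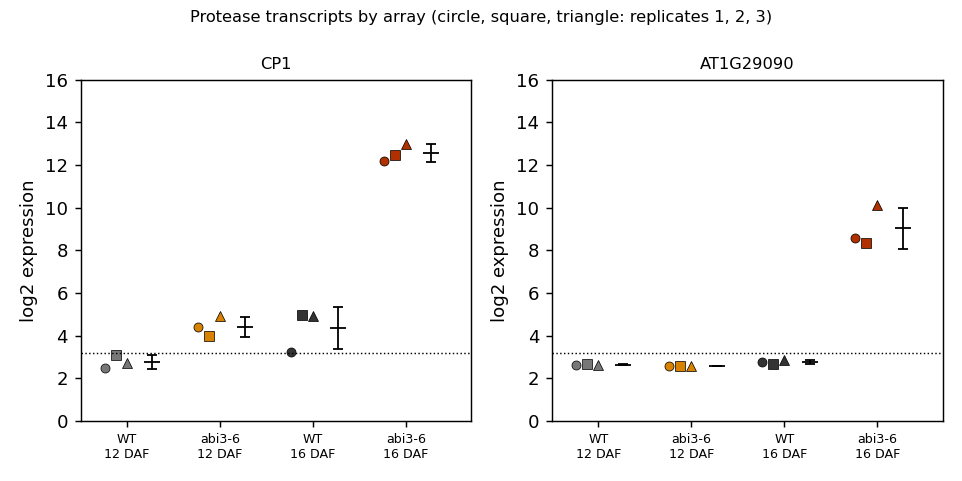
Log2 expression (y axis) of CP1 and AT1G29090 in the 4 groups of seeds (x axis), 1 symbol per array, with the mean and SD (n = 3) beside each group and the dim limit of 3.16 dotted. The abi3-6 arrays at 16 DAF lie between 12.17 and 13.00 for CP1 and between 8.34 and 10.14 for AT1G29090, above all other arrays, and of the pair CP1 alone leaves the dim range in 12 DAF mutant and 16 DAF wild-type seeds.

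The pair therefore shared the high level in abi3-6 at 16 DAF and differed in the groups with low signal. CP1 was above the dim limit on all 3 arrays of 12 DAF mutant and of 16 DAF wild-type seeds, where AT1G29090 was above it on 0. Replicate 3 was the highest abi3-6 array at 16 DAF for both genes. Across the 12 arrays their Pearson r was 0.97. Across the 9 arrays outside abi3-6 at 16 DAF, where AT1G29090 was dim, it was 0.18, so the first value rests on that 1 group.

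In the comparison of genotypes at 16 DAF, 70.2% of all probe sets tested passed a Benjamini-Hochberg adjusted p under 0.05 in limma, 35.6% higher and 34.6% lower in abi3-6. At 12 DAF these shares were 50.8%, 27.1% and 23.7%. Much of the array thus differed, and both proteases were chosen from these comparisons. After centring every array on a common median, the probe sets called at 16 DAF split into 4000 higher and 7295 lower instead of 5288 and 5151, and at 12 DAF into 3386 and 4528 instead of 4030 and 3530. The median difference of all probe sets moved from -0.03 to -0.39 at 16 DAF and from 0.00 to -0.13 at 12 DAF, while the difference of CP1 at 16 DAF moved from 8.19 to 7.83.

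The genes most like each protease were taken by Pearson r over the 12 arrays among named probe sets that were tested. For CP1 they were BGLU42, a beta-glucosidase gene (r = 0.988), AT1G62780 (0.985), GH3.1, of a family that joins auxin and other acids to amino acids (0.984), AT5G26280 (0.984) and AT1G62770 (0.984). Group means of BGLU42 were 2.57 and 3.32 for wild-type and mutant seeds at 12 DAF, and 3.35 and 6.16 at 16 DAF. As for CP1, the 2 middle groups lay close together between the extremes, which its choice by r with CP1 favours. Outside abi3-6 at 16 DAF the r of BGLU42 with CP1 over 9 arrays was 0.904, and those of the other 4 genes ran from 0.610 to 0.808. GH3.1 had means under the dim limit in all these groups. BGLU42, AT1G62780 and AT1G62770 had such means in 12 DAF wild type, where CP1 was dim too. These r values therefore rest in part on dim readings.

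For AT1G29090 the nearest patterns were THI2.1, which encodes an antimicrobial thionin (r = 0.999), AT1G69526 (0.998), AT1G67330 (0.998), AT1G54020 (0.997) and AT4G24450, named PWD in the gene table (0.997). THI2.1 had group means of 2.84 and 2.63 for wild-type and mutant seeds at 12 DAF, and 2.85 and 6.91 at 16 DAF. AT1G67330 went from 2.03 in abi3-6 at 12 DAF to 7.36 at 16 DAF. Means of these 5 genes outside abi3-6 at 16 DAF were all under the dim limit, so these correlations, too, rest on 3 arrays with signal and 9 without.

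In the gene table AT1G29090 stands in a row with 2 other listed papain-type loci, AT1G29080 next to it and AT1G29110 beyond 1 other gene. Their probe sets did not share its pattern. AT1G29080 was dim on all 12 arrays, with 2.14, 2.14 and 2.27 in abi3-6 at 16 DAF. AT1G29110 read 3.77, 3.14 and 3.28 in 16 DAF wild type and 2.51, 2.50 and 2.49 in mutant seeds of that age, so that its only 2 arrays above the dim limit were wild type. It was too dim to be tested. AT1G29070, a gene beyond AT1G29080 that is on no list here, rose in abi3-6 by 2.72 ± 0.14 log2 units (SE) at 16 DAF (limma, Benjamini-Hochberg adjusted p = 9.60e-10) and had a difference of 2.26 at 12 DAF.

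Both immediate neighbours of CP1 lack a probe set of their own. AT4G36860, 2 genes away, fell in abi3-6 at 16 DAF by 0.40 ± 0.13 log2 units (SE, limma, Benjamini-Hochberg adjusted p = 0.0125), from a mean of 7.38 to 6.98.

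The rest of the family was followed through a list of 30 other papain-type loci, of which 17 had a probe set of their own and 8 were bright enough to be tested. Family membership comes from general knowledge of the Arabidopsis genome, and the gene table used gives no symbol for these 8 loci. At 12 DAF, beside the 50.8% of all probe sets called, 2 of the 8 were higher in abi3-6, 3 were lower and 3 did not pass, with a median of -0.03 log2 units against 0.00 over all probe sets tested. At 16 DAF, beside 70.2%, 5 were higher, 2 lower and 1 did not pass, with a median of 1.33 against -0.03. One of the 5, AT3G19390, entered the test through abi3-6 at 16 DAF alone and had to differ there. Of the 7 others, 4 were higher and 2 lower, with a median of 1.09. Nothing particular to the family is read from these counts.

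Of the other family loci tested, AT3G45310 came closest to CP1 in the direction and size of its 16 DAF difference, and it was already high in the mutant at 12 DAF. It read 3.75, 3.82 and 3.78 in wild type and 8.17, 8.28 and 8.40 in abi3-6 at 12 DAF. At 16 DAF the wild-type arrays lay between 4.58 and 5.58, replicate 2 being the highest, and the mutant arrays read 10.16, 10.73 and 10.42. No groups of the same age overlapped. It rose in abi3-6 by 4.50 ± 0.21 log2 units (SE) at 12 DAF and by 5.38 ± 0.21 at 16 DAF (limma, Benjamini-Hochberg adjusted p = 1.09e-09 and 5.97e-11).

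AT4G01610 was bright in every group and differed between genotypes at 16 DAF. Its 16 DAF arrays read 11.01, 11.32 and 11.36 in wild type and 13.87, 13.86 and 13.92 in abi3-6, a rise of 2.65 ± 0.14 (SE, limma, Benjamini-Hochberg adjusted p = 1.13e-09). At 12 DAF the genotypes overlapped and differed by -0.05 ± 0.14, which did not pass (adjusted p = 0.809). The 12 DAF means were 11.63 ± 0.16 and 11.58 ± 0.12 (SD, n = 3).

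AT3G19390, like AT1G29090, was dim in 9 arrays and above the limit in abi3-6 at 16 DAF, where it read 4.56, 3.87 and 5.85, with replicate 3 again the highest. It was at least 3.03-fold above wild type at 16 DAF, or at least 2.07-fold without abi3-6 replicate 3, given as a description because the filter admitted it through that group. AT1G02300 rose from 3.21 ± 0.11 to 4.78 ± 0.34 (SD, n = 3) at 16 DAF, near the dim limit in wild type (limma, Benjamini-Hochberg adjusted p = 2.38e-06), and AT1G02305 rose by 0.84 ± 0.17 (SE) at 12 DAF and 1.09 ± 0.17 at 16 DAF (adjusted p = 0.000843 and 4.55e-05).

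AT3G54940 went the other way and was the family locus with the largest fall among the 8. It read 13.31, 13.17 and 13.36 in wild type and 10.45, 10.46 and 10.17 in abi3-6 at 12 DAF. At 16 DAF it read 13.79, 13.59 and 13.57 in wild type and 7.84, 7.95 and 5.77 in abi3-6, replicate 3 being the lowest. No groups of the same age overlapped. It fell by 2.92 ± 0.41 log2 units (SE) at 12 DAF and by 6.47 ± 0.41 at 16 DAF (limma, Benjamini-Hochberg adjusted p = 4.85e-05 and 7.06e-09). Without abi3-6 replicate 3 the 16 DAF difference was -5.76.

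AT4G16190 differed in abi3-6 by -1.06 ± 0.27 log2 units (SE) at 12 DAF and by -0.73 ± 0.27 at 16 DAF, and both falls passed (limma, Benjamini-Hochberg adjusted p = 0.00553 and 0.0299). At 16 DAF the groups overlapped, since abi3-6 replicate 3 read 8.28 against 7.05 and 7.09 on the other arrays. That call was lost without abi3-6 replicate 1 (-0.51) or 2 (-0.53), without wild type replicate 2 (-0.54), with no filter and with only the groups compared in the fit, and over all alternatives its adjusted p ran from 0.000168 (without abi3-6 replicate 3) to 0.134. AT2G21430, close to the dim limit throughout, fell by 0.56 ± 0.20 at 12 DAF (adjusted p = 0.0285) and differed by 0.09 ± 0.20 at 16 DAF, which did not pass. Its 12 DAF call was lost with no filter (adjusted p = 0.0518) and when replicate 1 (-0.49) or 3 (-0.47) of abi3-6, or replicate 1 (-0.52) or 2 (-0.56) of wild type, was left out, and over all alternatives the adjusted p ran from 0.0104 to 0.105.

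**Figure D2:**
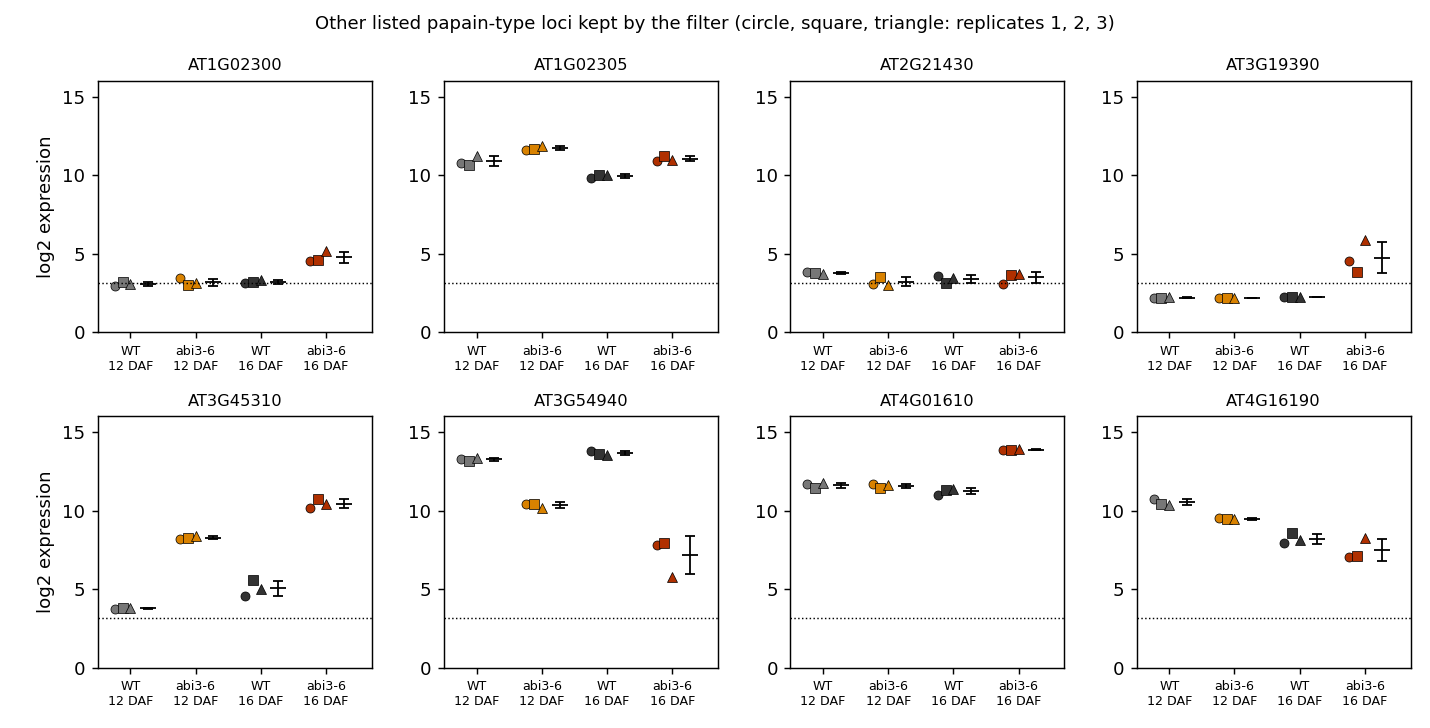
Log2 expression (y axis) of the 8 other papain-type loci tested, by group (x axis), 1 symbol per array, with the mean and SD (n = 3) beside each group and the dim limit of 3.16 dotted. AT3G45310, AT4G01610 and AT3G19390 stand highest in abi3-6 at 16 DAF, while AT3G54940 drops from between 13.57 and 13.79 in wild type to between 5.77 and 7.95 in abi3-6 at that age.

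The 9 other family loci with a probe set did not reach the limit on 3 arrays. Of them AT3G43960 crossed it on 1 array, abi3-6 replicate 3 at 16 DAF (3.67), AT3G49340 on 1 wild-type array at 16 DAF (3.30) and AT1G29110 on 2. The remaining 6, AT3G19400, AT4G23520, AT1G06260, AT2G27420, AT1G29080 and AT2G34080, were dim on all 12 arrays. The 13 loci without a probe set of their own, among them RD21A, SAG12, XCP1, XCP2 and CEP1 to CEP3, are not analysed here.

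**Figure D3:**
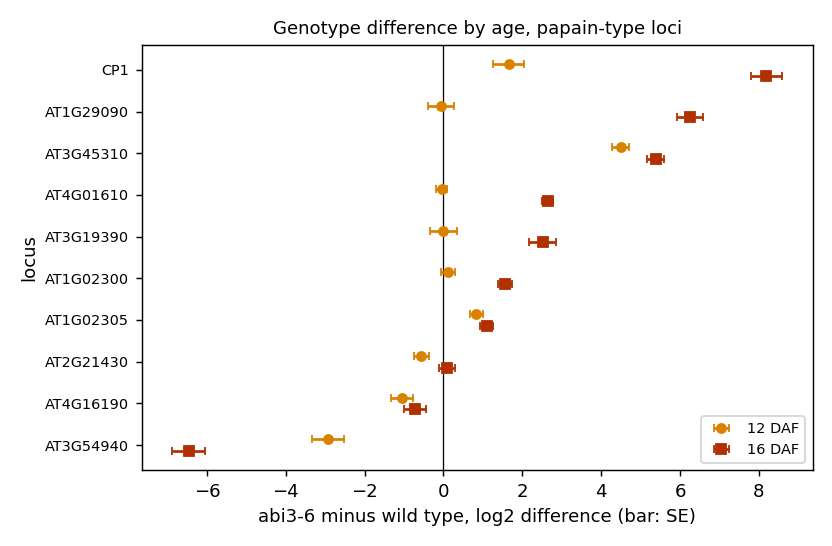
Log2 difference of abi3-6 minus wild type (x axis, bars SE of the fit) at 12 and 16 DAF for CP1, AT1G29090 and the 8 other papain-type loci tested (y axis). CP1 lies at 8.19 at 16 DAF, and AT3G54940 at -2.92 and -6.47. Wild type was dim behind the 12 DAF point of CP1 and both points of AT1G29090 and AT3G19390, whose fitted differences therefore take a reading below the limit at face value, and at 12 DAF the mutant was dim too for the latter pair.

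With age in wild-type seeds, 1 of the 8 other family loci rose, 3 fell and 4 did not pass, beside 62.4% of all probe sets called, 32% higher and 30.4% lower (6544 and 3721 probe sets after centring instead of 4762 and 4519). AT3G45310 rose by 1.27 ± 0.21 log2 units (SE), a direction CP1 shared, AT4G16190 fell by 2.33 ± 0.27 and AT1G02305 by 0.92 ± 0.17 (limma, Benjamini-Hochberg adjusted p = 0.000146, 5.16e-06 and 0.000249). AT4G01610 fell by 0.39 ± 0.14 (adjusted p = 0.0255), a call lost after median centring (-0.17), with only the groups compared in the fit, and without wild type 12 DAF replicate 1 (-0.37) or 3 (-0.33) or 16 DAF replicate 1 (-0.28), its adjusted p running from 0.0128 to 0.287 over the alternatives. AT3G54940 differed by 0.37 ± 0.41, which did not pass. It passed with only the groups compared in the fit (adjusted p = 0.0423) and without abi3-6 16 DAF replicate 3 (adjusted p = 0.027), in a range up to 0.652.

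With age in abi3-6 seeds, 4 of the 8 were called higher, 3 lower and 1 did not pass, beside 50.6% of all probe sets called, 27.1% higher and 23.5% lower. AT4G01610 rose by 2.30 ± 0.14 log2 units (SE) and AT3G45310 by 2.15 ± 0.21 (limma, Benjamini-Hochberg adjusted p = 2.03e-08 and 2.08e-06). AT3G54940 fell by 3.17 ± 0.41 and AT4G16190 by 2.00 ± 0.27 (adjusted p = 2.31e-05 and 4.10e-05). In the interaction of genotype and age 4 of the 8 passed upwards, 1 downwards and 3 did not pass, with a median of 0.77 against -0.01 over all probe sets, of which 40.1% passed, 21.2% higher and 18.9% lower. AT3G19390, which had to be higher in abi3-6 at 16 DAF, is among the 4 in both counts, and of the 7 others 3 were higher with age in abi3-6 and 3 in the interaction. The 12 and 16 DAF arrays differ in how the labels write their array files, so age and any handling shared within an age cannot be told apart. Titles of the wild-type 12 DAF arrays alone carry an added number before the replicate number, which no label explains. Any handling particular to that group cannot be told apart from the 12 DAF genotype difference, the wild-type step with age or the interaction.

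Cystatins, which block papain-type proteases by filling the active site cleft, were measured for 3 of 7 listed genes, and at each age 1 was higher in abi3-6, 1 lower and 1 did not pass, beside 50.8% of all probe sets called at 12 DAF and 70.2% at 16 DAF. CYS1 rose by 1.23 ± 0.14 log2 units (SE) at 16 DAF, from readings of 8.70, 9.05 and 8.89 in wild type to 10.08, 10.24 and 10.02 in abi3-6 (limma, Benjamini-Hochberg adjusted p = 3.98e-06). The groups did not overlap. At 12 DAF it rose by 0.44 ± 0.14 (adjusted p = 0.0200), a call lost after median centring (0.32) and quantile normalization (0.30) and without wild type replicate 2 (0.41) or 3 (0.37) or abi3-6 replicate 2 (0.41) or 3 (0.43), with adjusted p from 0.00836 to 0.0845 over the alternatives.

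AT5G05110 fell by 0.97 ± 0.13 log2 units (SE) at 12 DAF, and at 16 DAF from a mean of 9.36 to 7.86 (limma, Benjamini-Hochberg adjusted p = 4.25e-05 and 2.39e-07). AT5G47550 differed by 0.32 ± 0.19 and 0.16 ± 0.19, which did not pass, but was called without abi3-6 replicate 3 at 16 DAF (0.40, adjusted p = 0.0374, in a range up to 0.944), and the 16 DAF difference turned negative in some alternatives (down to -0.20). Over the 5 contrasts (genotype at each age, age in each genotype, and their interaction) cystatins passed in 10 of 15 gene-by-contrast tests, where all probe sets passed in 54.8% of theirs.

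SERPIN1, a serpin known to trap RD21A, was the only gene of 3 on a short list of other inhibitors and partners that was tested. It differed by -0.13 ± 0.14 at 12 DAF, which did not pass, and fell by 0.91 ± 0.14 log2 units (SE) at 16 DAF (limma, Benjamini-Hochberg adjusted p = 5.34e-05). Its 16 DAF arrays read 10.43, 10.16 and 10.24 in wild type and 9.41, 9.40 and 9.29 in abi3-6, with no overlap. It passed in 3 of its 5 contrasts, where all probe sets passed in 54.8% of theirs.

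Vacuolar processing enzymes are legumain-type cysteine proteases, a separate family, that cut storage proteins and activate other vacuolar proteases. All 4 were tested. At 12 DAF 3 were lower and 1 did not pass, beside 23.7% of all probe sets lower. At 16 DAF 1 was higher, 2 lower and 1 did not pass, beside 35.6% higher and 34.6% lower. DELTA-VPE, known from the seed coat, differed between genotypes in opposite directions at the 2 ages. At 12 DAF it was lower in abi3-6 by 1.34 ± 0.19 log2 units (SE, limma, Benjamini-Hochberg adjusted p = 4.56e-05). At 16 DAF it was higher there by 2.38 ± 0.19 (adjusted p = 6.30e-08). With age DELTA-VPE fell by 3.49 ± 0.19 in wild type (adjusted p = 2.30e-09). In abi3-6 it differed with age by 0.23 ± 0.19, which did not pass (adjusted p = 0.333). At 16 DAF it read 6.80, 6.82 and 6.47 in wild type and 9.23, 8.95 and 9.06 in abi3-6.

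BETA-VPE, the storage protein processing form of seeds, fell by 1.36 ± 0.22 at 12 DAF and by 2.63 ± 0.22 at 16 DAF, and GAMMA-VPE, at -0.95 ± 0.14 and -0.77 ± 0.14, also fell at both ages (limma, Benjamini-Hochberg adjusted p from 1.56e-07 to 0.000195). ALPHA-VPE differed by 0.54 ± 0.26 and 0.19 ± 0.26, which did not pass (adjusted p = 0.101 and 0.536), but was called at both ages without abi3-6 replicate 3 at 16 DAF (0.54 and 0.57, adjusted p = 0.0122 and 0.0123), and at 12 DAF with only the groups compared in the fit (adjusted p = 0.0266). Over the alternatives its adjusted p reached 0.279 at 12 DAF and 0.894 at 16 DAF, where the difference ran from -0.17 to 0.57. The enzymes passed in 14 of 20 gene-by-contrast tests, which are not independent, against 54.8% over all probe sets.

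**Figure D4:**
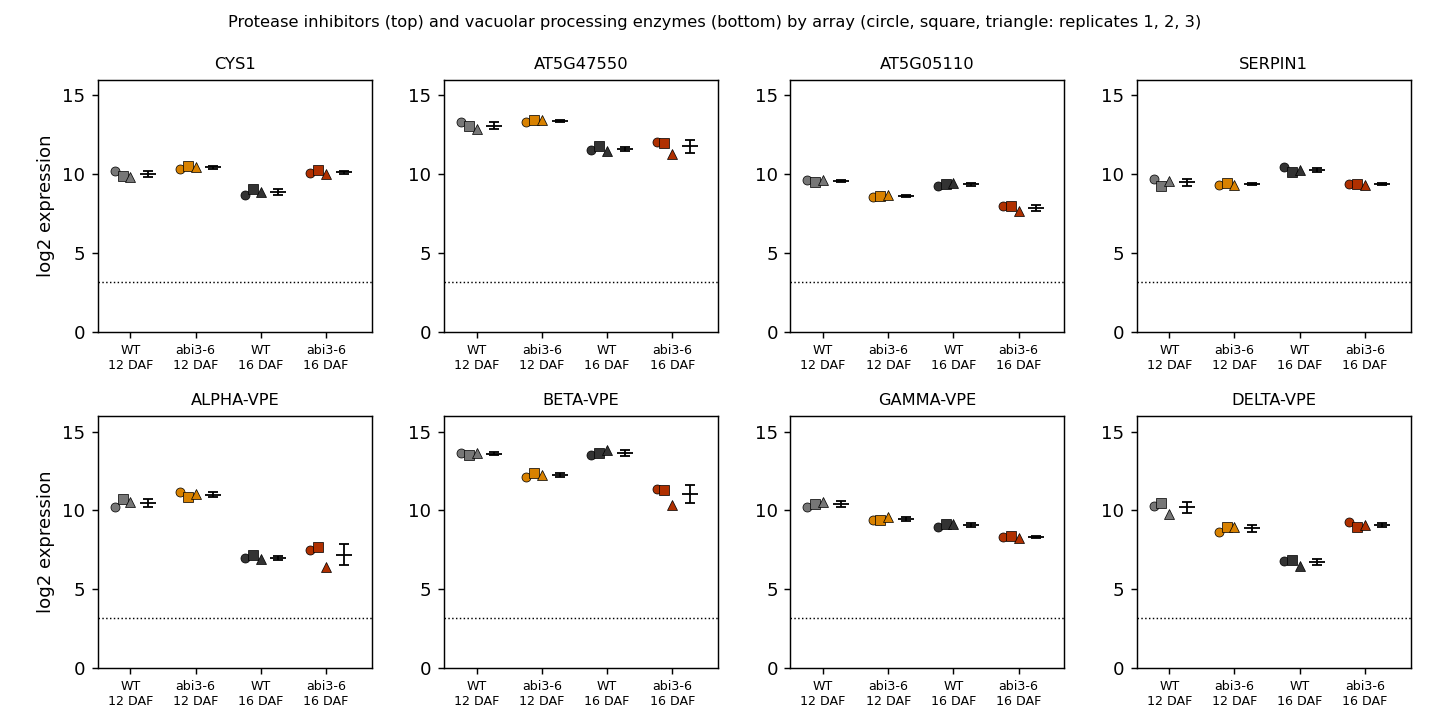
Log2 expression (y axis) of 3 cystatins and SERPIN1 (top) and of the 4 vacuolar processing enzymes (bottom) by group (x axis), 1 symbol per array, with the mean and SD (n = 3) and the dim limit of 3.16 dotted. At 16 DAF the abi3-6 arrays lie above wild type for CYS1 and DELTA-VPE and below it for AT5G05110, SERPIN1, BETA-VPE and GAMMA-VPE.

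The 3 genes on a list of vacuolar aspartic proteases were all tested. AT1G62290 rose in abi3-6 by 0.50 ± 0.13 log2 units (SE) at 12 DAF and 1.19 ± 0.13 at 16 DAF (limma, Benjamini-Hochberg adjusted p = 0.00726 and 2.70e-06). AT4G04460 differed by -0.29 ± 0.18 at 12 DAF, which did not pass, and fell by 2.01 ± 0.18 at 16 DAF (adjusted p = 3.30e-07). APA1 differed by 0.06 ± 0.13 and 0.19 ± 0.13, which did not pass, though at 16 DAF it was called after quantile normalization (0.56), and over the alternatives its difference ran from -0.17 to 0.56. The list passed in 9 of 15 gene-by-contrast tests, close to the 54.8% over all probe sets.

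Of 6 listed markers of developmental cell death, 3 were tested. All 3 were lower in abi3-6 at 12 DAF, beside 23.7% of all probe sets, and at 16 DAF 1 was higher and 2 lower, beside 35.6% and 34.6%. The gene scpl48, a serine carboxypeptidase-like gene, fell by 0.87 ± 0.16 log2 units (SE) at 12 DAF and rose by 2.00 ± 0.16 at 16 DAF (limma, Benjamini-Hochberg adjusted p = 0.000496 and 9.20e-08). AT4G18425 fell by 1.60 ± 0.34 and 2.26 ± 0.34, and AT2G14095 by 1.47 ± 0.29 and 1.97 ± 0.29 (adjusted p from 3.00e-05 to 0.00154). The list passed in 13 of 15 gene-by-contrast tests, which are not independent, against 54.8% over all probe sets. Of 6 leaf senescence genes only SAG101 had a probe set, which was dim on all 12 arrays.

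Some measures of tissue makeup and RNA moved with genotype beside these results. Seed coat markers were read by 3 of 6 genes (BAN, ARA12 and DFR), and the log2 of their summed level ran from 9.65 to 9.97 in wild type and from 11.2 to 11.5 in abi3-6 at 16 DAF. At 12 DAF it ran from 9.88 to 10.1 and from 10.3 to 10.7, and ARA12, the brightest of them, sets nearly all of this sum. ARA12 itself differed by 0.52 at 12 DAF and 1.45 at 16 DAF, DFR by -1.36 and 2.73, and all 4 passed (limma, Benjamini-Hochberg adjusted p from 3.46e-07 to 0.0127). Of all probe sets tested, 50.8% passed at 12 DAF and 70.2% at 16 DAF. BAN, a seed coat gene of proanthocyanidin synthesis, differed by -0.10 at 12 DAF, which did not pass, and was dim on every 16 DAF array. The silique wall list was read by ALC alone, 1 of 5 genes, at 2.70 to 3.30 in wild type and 3.62 to 4.75 in abi3-6 at 16 DAF, and at 3.60 to 4.63 and 2.92 to 3.18 at 12 DAF. The endosperm list was read by AGL62 alone, 1 of 6 genes, which was dim on all arrays. Actin control probe sets for the 3′ end, less those for the 5′ end, gave -0.37 ± 0.17 in wild type and 0.37 ± 0.09 in abi3-6 at 12 DAF, and -0.21 ± 0.02 and 0.37 ± 0.03 at 16 DAF (SD, n = 3, log2). The part of these measures in the levels of CP1, AT1G29090 and the other proteases was not tested, and in whole seeds fewer cells of a type and less RNA per cell cannot be told apart.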

How the data were processed

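The deposited table held 22810 probe sets on 12 arrays, 64 of them controls, and as deposited the values lay in the range of log2 expression, the scale assumed here, since no label states it. Per the submitters' processing notes the tools were GCOS 1.3 and GCRMA 2.0.0. Any further scaling between arrays is not given in the sources used here. GCRMA's background step can compress or stretch differences of dim probe sets. Gene names came from the annotation of the array (13513 with 1 gene, 503 with several, 8730 unnamed), joined to the TAIR10.1 gene table.

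The model, run in limma 3.58.1 under R 4.3.3, held 1 mean for each group over the 12 arrays (lmFit, then eBayes with a prior of 5.41 beside 8 residual degrees of freedom, two-sided, Benjamini-Hochberg over 14873 probe sets, threshold 0.05; 7873 dim probe sets left out). The fitting step was tested on simulated data. "At least" folds set a group dim on all its arrays to the dim limit. The number of arrays limits the precision. The 2 proteases and all gene lists were chosen with earlier results of these data known. Named genes were all tested papain-type loci that passed between genotypes, up to 4 such genes of each other list, and the 5 patterns most like each protease. Genes that did not pass are named to account for each list, and gene neighbours were added after seeing the data. Alternatives were other scalings and filters, a replicate block, fits of the compared groups alone, and leaving out each array. Figures were drawn with matplotlib 3.10.9 (Python 3.11.15).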

Additional observations from a re-analysis of the deposited data

Results flagged for a closer look

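For 13 of the tested genes on the protease, inhibitor and cell death lists the difference between abi3-6 and wild type itself differed between 12 and 16 DAF by the interaction term of the fit (limma, Benjamini-Hochberg adjusted p under the threshold), which 40.1% of all probe sets tested also passed (21.2% higher and 18.9% lower, or 2361 and 4149 probe sets after median centring instead of 3155 and 2816). The tested genes were 8 papain-type loci, 3 cystatins, SERPIN1, 4 vacuolar processing enzymes, 3 vacuolar aspartic proteases and 3 cell death markers. AT3G19390 is counted in the 13 although its pass was fixed, as given below. The maturation, seed coat and silique wall markers were left out of this set, and all those tested but BAN passed too. Values are the 16 DAF difference minus the 12 DAF difference in log2 units with their SE. Among papain-type loci it was 2.69 ± 0.20 for AT4G01610, 1.44 ± 0.25 for AT1G02300, 0.88 ± 0.30 for AT3G45310 and -3.54 ± 0.58 for AT3G54940. The fitted 2.52 for AT3G19390 rests on 3 dim groups and on a filter that admitted the locus through abi3-6 at 16 DAF, so its pass was fixed and its size is not measured. It was 0.79 ± 0.20 for CYS1, -0.53 ± 0.19 for AT5G05110 and -0.78 ± 0.20 for SERPIN1. It was 3.72 ± 0.26 for DELTA-VPE and -1.27 ± 0.32 for BETA-VPE. It was 0.70 ± 0.19 for AT1G62290, -1.72 ± 0.26 for AT4G04460 and 2.87 ± 0.23 for scpl48. DELTA-VPE and scpl48 were the members of this set whose genotype difference passed in opposite directions at the 2 ages. Of the markers left out, DFR and ALC did so as well. For AT3G45310 the call was lost in 12 of 17 alternatives, at values from 0.64 after median centring to 0.90 without wild type 12 DAF replicate 1 (adjusted p over all alternatives from 0.00334 to 0.097). That of AT5G05110 was lost with the replicate block (adjusted p = 0.0548, in a range from 0.00536 to 0.0901), after quantile normalization (-0.40) and without any of 8 arrays (-0.42 to -0.56). That of AT1G62290 was lost after median centring (0.46).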

How the results depend on the processing

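Of 158 recomputed differences of CP1 and AT1G29090 under the 16 alternatives run for them (the filter alternatives were not), 155 moved by less than the spread between replicates. The 3 others were of AT1G29090 between dim groups: at 12 DAF -0.06 became -0.18 after median centring and 0.018 after quantile normalization, and from 12 to 16 DAF in wild type 0.14 became 0.37 after median centring. Leaving out an array cannot shift a group mean by more than the spread between replicates. The replicate block and the fit of the compared groups alone leave a difference as it was. Only median centring and quantile normalization could exceed that spread, so the 155 are no measure of robustness. Of 263 counts over gene lists 250 stayed within 1.5 times. Leaving out AT3G19390, chosen after seeing the data, took the 16 DAF count higher from 5 to 4. Among the other papain-type loci, at 16 DAF the count higher in abi3-6 went from 5 of 8 tested to 8 of 17 with no filter. With the stricter filter it was 3. The count lower went from 2 to 5 with no filter and to 1 with only the groups compared. It ran between 1 and 2 when an array was left out. Over all probe sets, 5399 were higher and 9078 lower of 22746 with no filter, against 5288 and 5151 of 14873. The stricter filter gave 4168 and 4001 of 10834, and the groups compared alone gave 5013 lower. The filters thus change which loci and probe sets are counted. With age in wild type the count that rose went from 1 to 2 with no filter and with only the groups compared. It ran from 1 to 2 when an array was left out. Over all probe sets, 5318 of 22746 rose with no filter and 4437 of 14873 with only the groups compared, against 4762. The stricter filter, which tests fewer genes, took the count that rose with age in abi3-6 from 4 to 2. It took the higher interaction calls from 4 to 2, and no filter took the lower ones from 1 to 2. Over all probe sets, the stricter filter took these higher calls from 4028 and 3155 of 14873 to 3188 and 2524 of 10834. No filter took the lower interaction calls over all probe sets from 2816 to 2616 of 22746. Of 1943 single-gene values 58 crossed the threshold and 32 changed sign, the latter called neither in the report nor under the alternative. Replicate numbers were not taken as pairs, since no label says that a number marks plants shared between groups. Of 18 same-number pairs of deviations, 3 correlated over 0.1 (-0.02 to 0.16). Still, 15 of the 18 were above 0 and 10 of 12 arrays correlated best with their own number, a hint of shared deviations from the data. With the replicate block, 5296 and 5160 probe sets were higher and lower at 16 DAF, against 5288 and 5151, and the difference of CP1 was 8.19 in both. No second probe set was paired with either gene, so that alternative could not be run. Dim signal limits AT1G29090 outside abi3-6 at 16 DAF and CP1 in wild type at 12 DAF.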
